A study of Mus musculus with 2 samples.

Results

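The interferon-gamma inducible GTPases described here are 8 mouse genes of the guanylate-binding protein (GBP) and immunity-related GTPase (IRG) families: Gbp2, Gbp3, Gbp5, Gbp7, Igtp, Irgm1, Irgm2 and Iigp1. They were chosen by symbol, and each of the 8 has an entry among the 24984 gene symbols of both libraries. The libraries come from droplet-based single cell RNA-seq. Live mononuclear cells had been sorted from the hind limbs of mdx mice, a dystrophin-deficient strain used to model Duchenne muscular dystrophy. Both groups were on the mdx background and carried Pax7CreERT2 with the R26YFP reporter, and both received tamoxifen. The Ctrl mice were Yy1+/+. The dKO mice were Yy1f/f, so that Cre driven by Pax7 deletes Yy1, which encodes the transcription factor YY1, in the muscle stem cells (MuSCs) and not in the other cells of the tissue. Each library pooled the cells of 3 mice, taken 1 month after tamoxifen. There is thus 1 library per genotype and no replicate, so no test between genotypes was possible, and the genotype cannot be told apart from the library and its 3 mice.

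Counts are of unique molecular identifiers (UMIs), which tag single captured transcripts. The deposited barcodes numbered 4527 in Ctrl and 3483 in dKO, with 45556596 and 33815155 UMIs and medians of 7697 and 7615 UMIs per cell. The libraries shared 7 barcodes. After removal of cells with fewer than 500 genes and of likely doublets, 4010 Ctrl and 3079 dKO cells were clustered without any of the genes studied here and were assigned to 14 named classes from fixed marker genes. Names such as "FAP-like" stand for fibro-adipogenic progenitors, "MO/MP-like" for monocytes and macrophages and "EC-like" for endothelial cells. Yy1 was checked first. In MuSC-like cells it had 369 UMIs in Ctrl (159.7 CPM, or UMIs per 1000000 UMIs of the class) and 3 UMIs in dKO (4.85 CPM), whereas its dKO to Ctrl ratio was 1.09 in FAP-like, 1.12 in MO/MP-like and 0.993 in EC-like cells.

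Interferon-gamma binds a receptor of the subunits IFNGR1 and IFNGR2, which signals through the kinases JAK1 and JAK2. Promoters of induced genes can carry the GAS element, and the induced factor IRF1 binds the interferon-stimulated response element (ISRE), which also serves genes induced by type I interferon. GBPs are large GTPases that assemble on vacuoles and on bacterial surfaces and recruit the machinery that opens them. IRG proteins act on the same membranes. Igtp (Irgm3), Irgm1 and Irgm2 belong to the regulatory GMS subgroup, which guards self membranes, and Iigp1 (Irga6) belongs to the effector GKS subgroup, which is loaded onto pathogen vacuoles. Proteins that conjugate the ATG8 ubiquitin-like modifiers direct this targeting, and GBPs on bacteria favour caspase-11 and gasdermin D activity.

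The 4 GBP members lie together on the forward strand of chromosome 3 (GENCODE M21 annotation of GRCm38, whole gene bodies). They span 144031 bases in the order Gbp5 (chr3:142493978-142522344), Gbp7 (chr3:142530342-142550149), Gbp3 (chr3:142560026-142573209) and Gbp2 (chr3:142620602-142638008). On chromosome 11, Irgm1 lies on the reverse strand (chr11:48861968-48871683), and 9327872 bases away Igtp (chr11:58199556-58207591) lies on the forward strand, inside the annotated body of Irgm2 (chr11:58199618-58222782) apart from its first bases. Igtp and Irgm2 share strand, so reads from the shared stretch cannot be assigned by position alone, and their separate levels are uncertain to that extent. The other members are also paralogs of each other, and reads from near-identical stretches may have been dropped or split. Iigp1 has no window in the promoter table and is named only.

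Promoter windows from RefSeq (GRCm38.p6), which run from 250 bases before to 50 bases after a gene's start, were found for 7 of the 8 members. The ISRE core, taken as GAAA, any 2 bases and GAAA again and searched on both strands, is in a window of 7 of these 7, and it is in 1131 of all 32851 windows (3.44%). The GAS motif, taken as TTC, any 3 bases and GAA, which reads the same on both strands, is in the windows of 4 of the 7 (Gbp5, Gbp7, Igtp and Irgm2), against 8.3% of all windows. None of the GAS matches overlaps an ISRE match. A match is a string of letters and not a measured binding site. The 30 bases around each ISRE core match are shown because this element is what the 7 windows have in common. They are read 5′ to 3′ on the gene's own strand, with the match in capitals (as its reverse complement, TTTC, any 2 bases and TTTC, where the gene carries it on the other strand):
Gbp2: actcttttagTTTCACTTTCactgtcttaa
Gbp3: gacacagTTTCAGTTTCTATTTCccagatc
Gbp5: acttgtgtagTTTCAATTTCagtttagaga
Gbp7: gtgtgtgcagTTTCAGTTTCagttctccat
Igtp: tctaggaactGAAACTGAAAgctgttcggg
Irgm1: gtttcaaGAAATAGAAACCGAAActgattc
Irgm2: tccaggaactGAAACTGAAAgctgttcggg
The stretches are chr3:142620594-142620623 (Gbp2), chr3:142559992-142560021 (Gbp3), chr3:142496759-142496788 (Gbp5), chr3:142530273-142530302 (Gbp7), chr11:58199512-58199541 (Igtp), chr11:48871428-48871457 on the reverse strand (Irgm1) and chr11:58214903-58214932 (Irgm2). The GBP members carry the core on the opposite strand and the IRG members on their own strand. Gbp3 and Irgm1 hold 2 overlapping matches each. The match begins 165 bases before the RefSeq start in Gbp5 and between 30 and 64 bases before it in the other 6. The RefSeq start differs from the end of the GENCODE gene body. The matches of Gbp2, Gbp5, Irgm1 and Irgm2 therefore lie inside the gene bodies given above. The Igtp and Irgm2 stretches are identical at 29 of 30 bases.

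Which cells carry the 8 genes was asked first in the Ctrl library. Levels are UMIs of a gene in CPM, with exact Poisson 95% intervals that cover counting error only and say nothing of the spread between mice. Summed over the 8 genes, EC-like cells had 1180.2 CPM (1139 to 1222, 466 cells). Lymphatic EC-like cells followed at 844 CPM (678 to 1039), but they numbered 18, and 63 of their 89 UMIs were in 1 cell. T cell-like (369 CPM, 312 to 433), smooth muscle-like (327 CPM, 289 to 369) and Fcna-led MO/MP-like cells (319 CPM, 283 to 358) had overlapping intervals and were the next of the named classes. The unnamed cluster, of 24 Ctrl and 13 dKO cells, had 625 CPM (488 to 789) in Ctrl and 362 CPM in dKO.

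FAP-like cells, the matrix-producing stromal cells of muscle, had 191 CPM (184 to 199) and MO/MP-like cells 159 CPM (152 to 166), with intervals that did not overlap. Dendritic cell-like cells (147 CPM, 126 to 172) could not be separated from MO/MP-like cells. Cycling FAP-like (107 CPM), cycling MO/MP-like (105 CPM) and tenocyte-like cells (102 CPM) had overlapping intervals. B cell-like (63.0 CPM, 39.95 to 94.6) and MuSC-like cells (46.7 CPM, 38.3 to 56.4) overlapped each other, and neutrophil-like cells had 28.0 CPM (13.4 to 51.5) from 10 UMIs. In dKO the EC-like cells were again highest, at 1754 CPM (1667 to 1844, 179 cells).

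**Figure D1:**
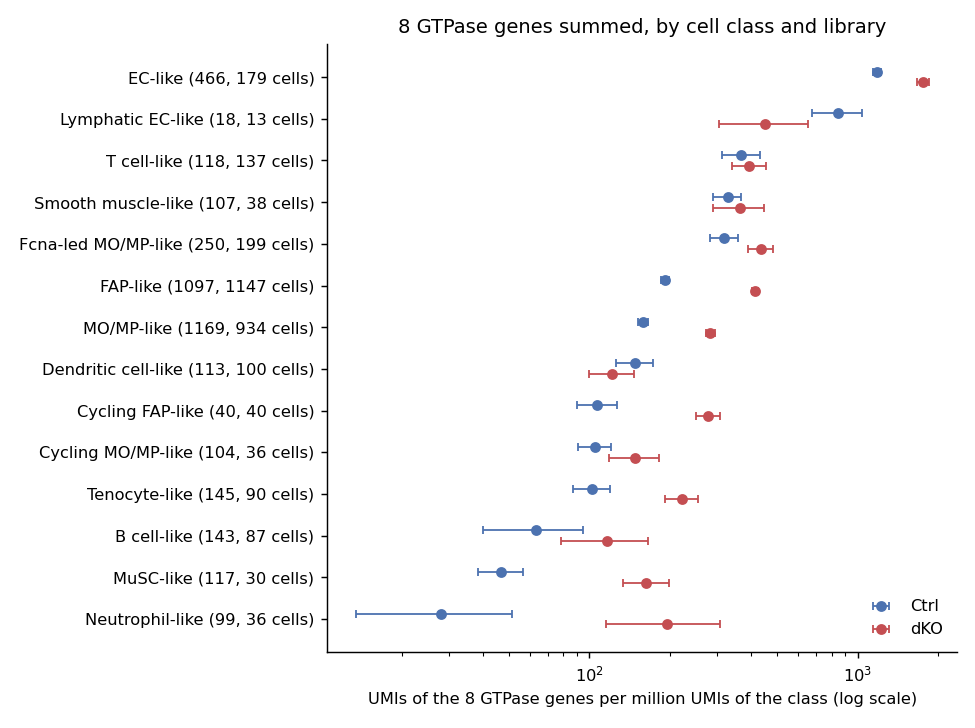
Summed level of the 8 GTPase genes in CPM (log axis) for the 14 named cell classes, with cell numbers of Ctrl and dKO in brackets, points for the 2 libraries and exact Poisson 95% intervals that cover counting error only. EC-like cells are highest in both libraries, at 1180.2 CPM in Ctrl and 1754 CPM in dKO, and the FAP-like and MO/MP-like intervals of the 2 libraries do not overlap.

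In FAP-like cells all 8 genes were higher in dKO. The 8 genes summed had 2832 UMIs in 1097 Ctrl cells and 6359 UMIs in 1147 dKO cells, or 191 CPM against 416 CPM (406 to 426), a ratio of 2.17 with a counting interval of 2.08 to 2.27. Each of the 8 members was at least 1.5-fold higher in dKO. Of all 10249 genes that reached 100 UMIs in this class, 2.64% were as much higher and 3.07% as much lower, and the median log2 ratio was -0.06, against 1.02 for the 8 members.

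Among the IRG members, Iigp1 had 791 UMIs in Ctrl, a level of 53.5 CPM (49.8 to 57.3), and in dKO it had 2520 UMIs, or 165 CPM (158 to 171). The ratio was 3.08 (2.84 to 3.34). Igtp was at 12.8 CPM in Ctrl and 29.9 CPM in dKO, a ratio of 2.34 (1.97 to 2.79). Irgm1 went from 8.92 to 16.9 CPM, a ratio of 1.90 (1.53 to 2.36). The effector IRG member thus had a higher ratio than the 3 regulatory members, and its counting interval did not overlap theirs. Irgm2 was at 17.6 and 31.8 CPM, a ratio of 1.81 (1.56 to 2.11). Without Iigp1, the other 7 genes summed were at 138 CPM in Ctrl and 251 CPM in dKO, a ratio of 1.82 (1.72 to 1.92).

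Among the GBP members in FAP-like cells, Gbp3 had 204 UMIs in Ctrl and 478 in dKO (13.8 and 31.3 CPM), a ratio of 2.27 (1.92 to 2.68). Gbp5, known for its action at the Golgi and in inflammasome assembly, was at 7.37 and 16.0 CPM, a ratio of 2.17 (1.73 to 2.75). Gbp7 was at 36.4 and 63.2 CPM, a ratio of 1.74 (1.56 to 1.93). All of these intervals lie above 1.5. Gbp2, which binds bacterial surfaces, was at 41.2 and 61.9 CPM, and its ratio of 1.502 sat at the threshold with an interval of 1.36 to 1.67. With each cell thinned to 2000 UMIs, the Gbp2 log2 ratio was 0.29.

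No single cell held the higher level. The FAP-like cell with most member UMIs held 3.18% of the summed UMIs in Ctrl and 2.47% in dKO. Of the whole libraries, FAP-like cells accounted for 30.2% of all Iigp1 UMIs of the Ctrl library and 66.3% of those of dKO, while EC-like cells went from 53.1% to 19.7%. EC-like cells were also fewer in dKO, at 179 of 3079 cells against 466 of 4010. FAP-like cells held 36.3% of the UMIs of all genes in Ctrl and 50.3% in dKO. The Iigp1 shares include this difference in class composition.

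**Figure D2:**
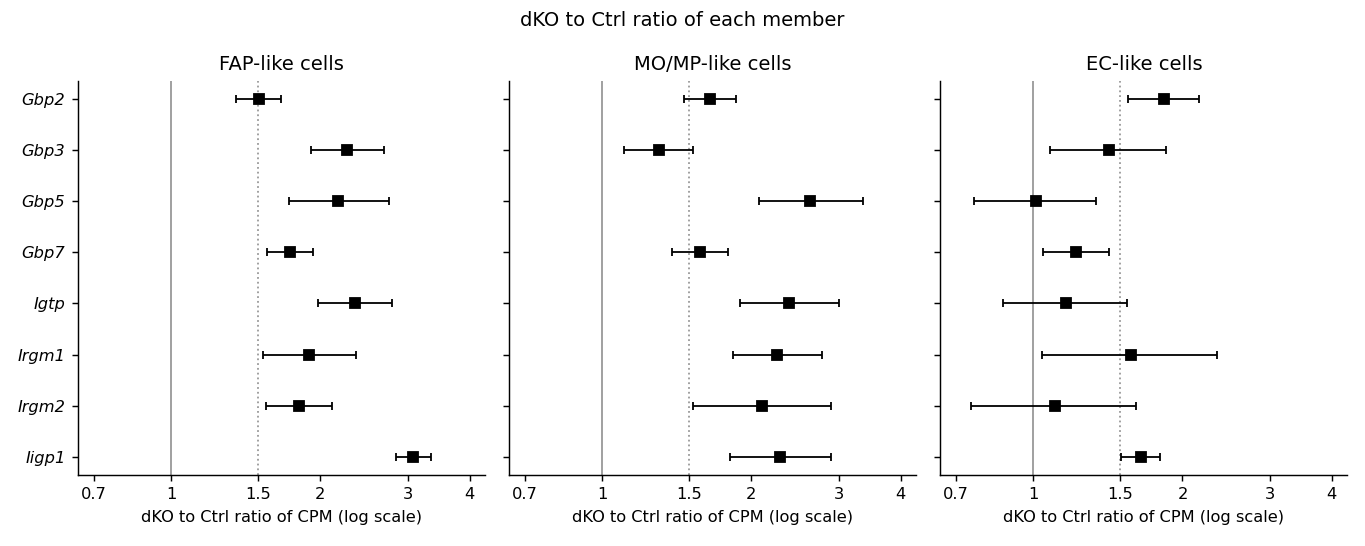
dKO to Ctrl ratio of CPM (log axis) for each of the 8 members in FAP-like, MO/MP-like and EC-like cells, with exact conditional 95% counting intervals. The solid line marks a ratio of 1 and the dotted line the 1.5-fold threshold, which 8, 7 and 3 members reach, and Iigp1 in FAP-like cells stands furthest right at 3.08.

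The FAP-like cells fell into 4 clusters, and the summed level was higher in dKO in each of them. In the cluster led by C7, a complement component gene, the sum went from 198 to 521 CPM, a ratio of 2.63 (2.37 to 2.91). In the cluster led by Col6a6, a collagen VI chain gene, it went from 226 to 538 CPM (2.38, 2.21 to 2.55), and in the one led by the chemokine gene Cxcl5 from 145 to 289.8 CPM (2.002, 1.84 to 2.17). The cluster led by Efhd1 had 251 and 376 CPM, a ratio of 1.501 (1.31 to 1.72).

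Iigp1 differed most among these clusters. In C7-led cells it had 92 UMIs in 285 Ctrl cells and 758 in 358 dKO cells, or 38.1 against 236 CPM, a ratio of 6.20 (4.99 to 7.78). The ratio was 3.20 (2.83 to 3.63) in Col6a6-led, 2.37 (2.05 to 2.74) in Cxcl5-led and 1.80 (1.37 to 2.38) in Efhd1-led cells. The C7-led interval did not overlap those of the other 3 clusters. Gbp2 was at 75.7 CPM in Ctrl and 69.6 CPM in dKO in the Efhd1-led cluster, a ratio of 0.92 (0.699 to 1.21), so it was not higher in dKO there. In the other 3 clusters its ratio lay between 1.53 and 1.71. The 40 cycling FAP-like cells of each library had 107 and 278 CPM for the sum, a ratio of 2.60 (2.14 to 3.18). However, 150 of their 381 dKO UMIs were in 1 cell. Leaving out the top cell of each library, the ratio was 1.67 (1.34 to 2.08).

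**Figure D3:**
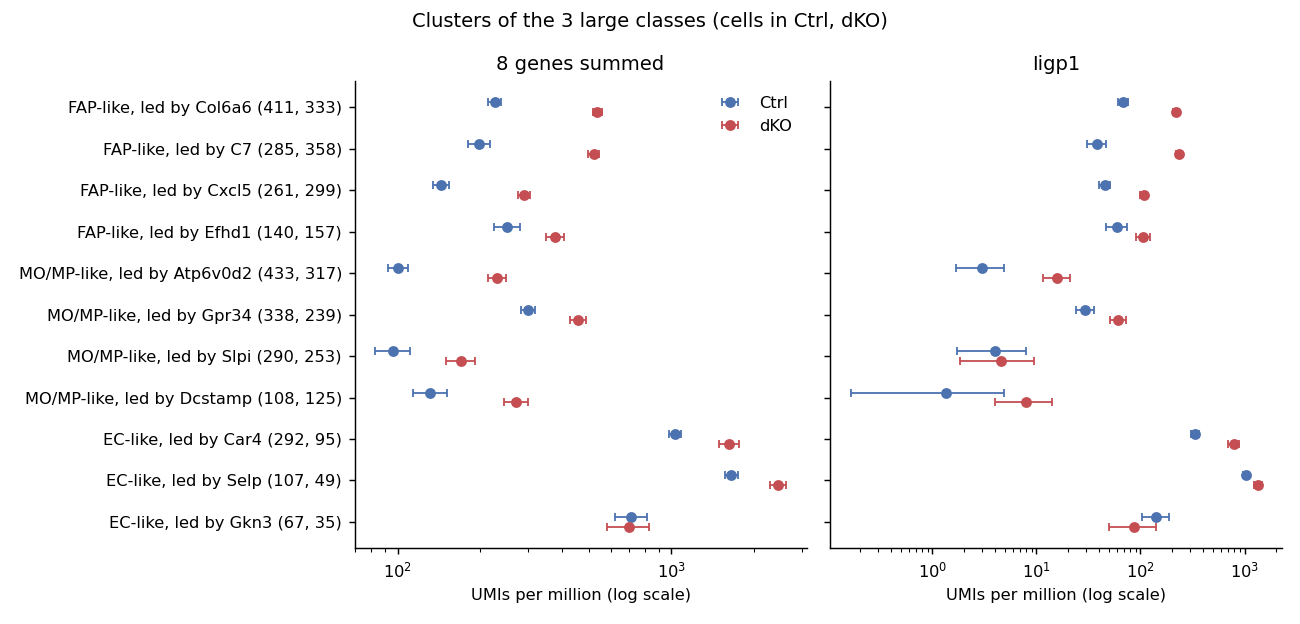
CPM (log axis) of the 8 genes summed (left) and of Iigp1 (right) in the 11 clusters of FAP-like, MO/MP-like and EC-like cells, named by their leading gene with cell numbers of Ctrl and dKO, with exact Poisson 95% intervals. The sum is higher in dKO in 10 of the 11 clusters, the Gkn3-led EC-like cluster being the exception at 714 and 699.9 CPM, and the widest Iigp1 gap among FAP-like clusters is in C7-led cells (38.1 and 236 CPM).

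In MO/MP-like cells, the phagocytes in which these GTPases are best studied, the 8 genes summed had 1931 UMIs in 1169 Ctrl cells and 2217 UMIs in 934 dKO cells. This was 159 CPM against 283 CPM (271 to 295), a ratio of 1.78 (1.68 to 1.90). The difference was at least 1.5-fold in 7 of the 8 members, against 4.52% of the 8489 genes that reached 100 UMIs, of which 2.69% were as much lower. The member below the threshold was Gbp3, at 28.0 and 36.5 CPM, a ratio of 1.30 (1.11 to 1.53).

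Gbp5 had 111 UMIs in Ctrl and 188 in dKO (9.12 and 24.0 CPM), a ratio of 2.63 (2.07 to 3.36). The regulatory IRG members had ratios of 2.38 (Igtp, 10.4 and 24.9 CPM), 2.25 (Irgm1, 12.9 and 29.1 CPM) and 2.10 (Irgm2, 5.83 and 12.2 CPM). Iigp1 was at 10.3 and 23.5 CPM, a ratio of 2.29 (1.81 to 2.89). In contrast to FAP-like cells, the Iigp1 ratio thus lay within the intervals of the regulatory members. A single Ctrl cell held 27 of the 125 Iigp1 UMIs. Leaving out the top Iigp1 cell of each library, the Iigp1 ratio was 2.74 (2.13 to 3.55). Gbp2 (43.4 and 71.8 CPM) and Gbp7 (38.6 and 60.8 CPM) had ratios of 1.65 (1.46 to 1.86) and 1.58 (1.38 to 1.79).

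All 4 MO/MP-like clusters had a higher sum in dKO. The ratio was 2.30 (2.06 to 2.58) in the Atp6v0d2-led cluster (100.3 and 231 CPM) and 2.06 (1.73 to 2.46) in the Dcstamp-led cluster (132 and 271 CPM). It was 1.78 (1.47 to 2.15) in the Slpi-led cluster (96.0 and 171 CPM) and 1.53 (1.39 to 1.67) in the Gpr34-led cluster, which had the highest level of the 4 in both libraries (299.7 and 458 CPM). A further cluster led by Fcna, the ficolin A gene, was kept apart because genes of other marker lists led it. It had 319 CPM in 250 Ctrl cells and 435 CPM in 199 dKO cells, a ratio of 1.36 (1.16 to 1.60).

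In EC-like cells, where the levels were highest, fewer members reached the threshold. The sum had 3157 UMIs in Ctrl and 1529 in dKO, or 1180.2 and 1754 CPM, a ratio of 1.49 (1.40 to 1.58). A single dKO cell held 136 of the 1529 UMIs. Without the top cell of each library, the ratio of the sum was 1.40 (1.31 to 1.49). Of the 8 members, 3 were at least 1.5-fold higher in dKO, against 4.59% of 4753 genes (7.36% were as much lower). With no doublets removed, 0 of the 8 reached 1.5-fold and the log2 ratio of the sum was 0.44, or 0.57 with doublets removed.

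Iigp1 stood at 520.0 CPM (493 to 548) in Ctrl against 857 CPM (797 to 921) in dKO, and the ratio was 1.65 (1.51 to 1.80). Gbp2 was at 150.3 and 275 CPM, a ratio of 1.83 (1.55 to 2.16), with 46 of its 240 dKO UMIs in 1 cell. Without the cell with most Gbp2 UMIs in each library the ratio was 1.58 (1.32 to 1.88). Irgm1 had a ratio of 1.57 from 76 and 39 UMIs, with an interval of 1.04 to 2.35. Leaving out its top cell in each library, Irgm1 was at 1.498 (0.964 to 2.29), below the threshold and with an interval that includes 1. Gbp5 stood at 78.1 and 79.2 CPM, a ratio of 1.01 (0.760 to 1.34). The Gbp5 interval in EC-like cells did not overlap those in FAP-like and MO/MP-like cells. Igtp (68.0 and 79.2 CPM) and Irgm2 (40.4 and 44.7 CPM) had ratios of 1.16 and 1.11 with intervals that include 1. Gbp3 (1.42, 1.08 to 1.86) and Gbp7 (1.22, 1.05 to 1.42) lay above 1 and below 1.5.

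The EC-like clusters did not share 1 pattern. In cells led by Car4, a gene of capillary endothelium, the sum went from 1031 to 1624 CPM (1.58, 1.43 to 1.74), and Iigp1 from 334 to 789 CPM (2.36, 2.03 to 2.74), while Gbp2 was at 143 and 157 CPM (1.09, 0.796 to 1.48). In cells led by Selp, the P-selectin gene of venules, the sum was highest, at 1659 and 2453 CPM (1.48, 1.35 to 1.61). Without the top cell of each library, the Selp-led sum had a ratio of 1.35 (1.23 to 1.48). There Gbp2 went from 155 to 409 CPM (2.64, 2.06 to 3.39) and Iigp1 from 1037 to 1340.2 CPM (1.29, 1.15 to 1.45). The Iigp1 and the Gbp2 intervals of these 2 clusters do not overlap, and the order of the clusters is opposite for the 2 genes. The dKO cell with 46 Gbp2 UMIs was in the Selp-led cluster, and leaving out the top Gbp2 cell of each library gave 2.18 (1.63 to 2.92) there and 1.08 (0.773 to 1.48) in the Car4-led cluster. In cells led by Gkn3, known from arterial endothelium, the sum was 714 and 699.9 CPM (0.98, 0.783 to 1.22), and Iigp1 was at 141 and 86.8 CPM (0.616, 0.324 to 1.11) from 44 and 16 UMIs.

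The remaining classes hold fewer cells and UMIs. T cell-like cells had 369 and 394 CPM for the sum, a ratio of 1.07 (0.857 to 1.33), and 1 member, Gbp7, reached 100 UMIs there (1.38, 0.935 to 2.07). Tenocyte-like cells had 102 and 221 CPM (2.16, 1.74 to 2.68), with 62 of 196 dKO UMIs in 1 cell. MuSC-like cells are the class in which Yy1 was nearly absent in dKO. All 9 fixed MuSC markers, Pax7 and Myf5 among them, were enriched in them, but genes of differentiating myocytes such as Mymx, Myog and Ttn led the cluster, so that it is not of stem cells alone. These cells had 108 UMIs in 117 Ctrl cells and 101 UMIs in 30 dKO cells, or 46.7 and 163 CPM, a ratio of 3.49 (2.63 to 4.62). The interval of the dKO MuSC-like level (133 to 198 CPM) overlapped that of Ctrl FAP-like cells. Smooth muscle-like cells were at 327 and 363 CPM (1.11, 0.857 to 1.42), or 0.803 (0.585 to 1.08) without the top cell of each library, and neutrophil-like cells at 28.0 and 194 CPM from 10 and 18 UMIs.

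Dendritic cell-like cells had 147 and 121 CPM, a ratio of 0.822 (0.639 to 1.05). The 2 clusters of this class differed, with 1.15 (0.845 to 1.56) in the Cd209a-led cluster and 0.389 (0.230 to 0.634) in the Xcr1-led cluster, which held 43 Ctrl and 32 dKO cells with 72 and 22 UMIs. A single Ctrl cell of the Xcr1-led cluster held 34 of its 72 UMIs. Leaving out the top cell of each library gave 0.532 (0.277 to 0.978), against 1.31 (0.931 to 1.84) in the Cd209a-led cluster, so that the intervals overlapped. Without the top cells of the whole class, its ratio was 0.93. Over the whole libraries the sum was 235 and 385 CPM (1.64, 1.60 to 1.69), and 5 of 8 members were at least 1.5-fold higher, against 3.32% of 12557 genes. With the dKO class levels weighted by the Ctrl class shares of UMIs, the ratio was 1.76.

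To compare shares of cells at 1 depth, each cell was thinned to 2000 UMIs, and shallower cells were left out (65 Ctrl and 54 dKO FAP-like, 49 and 52 MO/MP-like, 67 and 36 EC-like cells). Intervals are exact binomial 95% intervals. A UMI of any of the 8 genes was found in 25.9% of FAP-like cells in Ctrl (23.2 to 28.7), against 41.6% in dKO (38.7 to 44.6). In MO/MP-like cells the shares were 21.3% (19.0 to 23.9) and 32.3% (29.2 to 35.5), and in EC-like cells 69.9% (65.2 to 74.4) and 79.7% (72.2 to 86.0). B cell-like cells gave 13.3% of 98 and 19.7% of 71 cells. Without thinning the shares were 66.5% and 79.1% in FAP-like, 48.8% and 58.0% in MO/MP-like and 82.4% and 82.1% in EC-like cells.

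In FAP-like cells, Iigp1 alone was found in 6.01% of the Ctrl library (4.64 to 7.64) and 17.7% of dKO (15.5 to 20.1), against 38.1% and 49.0% in EC-like cells. B cell-like cells are given for comparison and were not the lowest class for the sum. Among them, Iigp1 was found in 0 of 98 Ctrl cells and in 1 of 71 dKO cells. At this depth, 0 of 98 allows a share of up to 3.69% of cells with an Iigp1 UMI, which is not the share of cells expressing it. The median depth before thinning was 11742 and 11872 UMIs in FAP-like cells and 2328 and 2556 UMIs in B cell-like cells.

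At least 2 members were found in 6.01% (Ctrl) and 12.7% (dKO) of FAP-like cells, and in 4.91% and 8.96% of MO/MP-like cells. In EC-like cells the values were 38.1% and 39.9%. Among Ctrl FAP-like cells with Iigp1, 45.2% also had another member, against 21.1% of those without Iigp1. In dKO these shares were 47.4% and 29.0%. In EC-like cells they were 71.7% and 51.4% in Ctrl but 61.4% and 60.3% in dKO, where they differed little. For Gbp2 in the Ctrl FAP-like cells they were 35.6% and 19.0%. The 110 dKO FAP-like cells with most member UMIs, 10% of the class, held 57.4% of the summed UMIs after thinning, and the 104 such Ctrl cells held 61.9%.

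**Figure D4:**
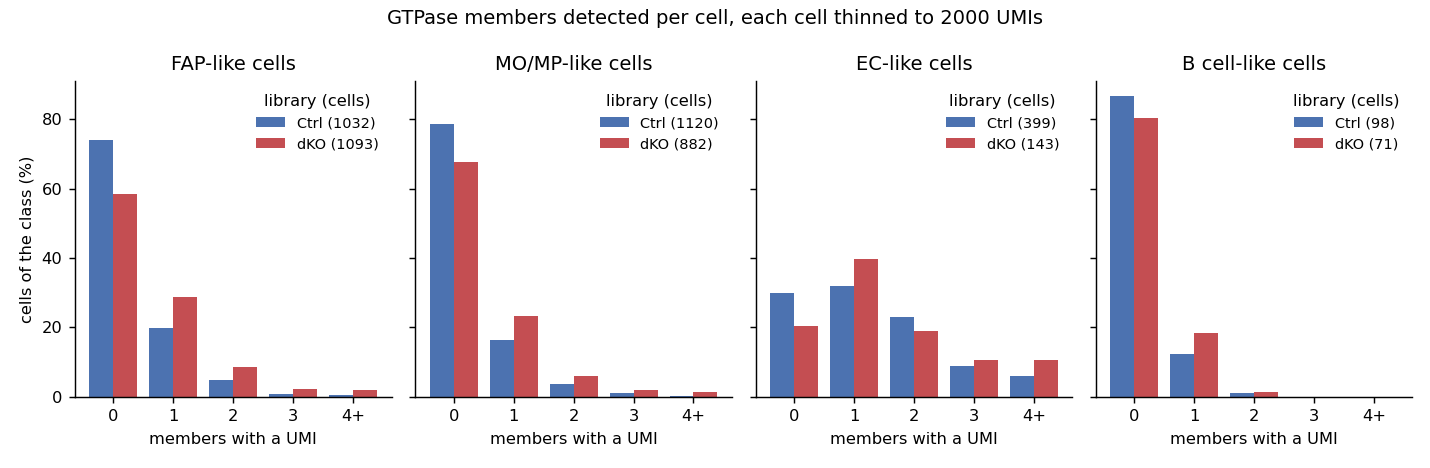
Share of cells (%) with a UMI of 0, 1, 2, 3 or at least 4 of the 8 members in FAP-like, MO/MP-like, EC-like and B cell-like cells, each cell thinned to 2000 UMIs, with Ctrl in blue, dKO in red and cell numbers in the legends. The bar at 0 is lower in dKO in all 4 classes, and most EC-like cells have at least 1 member (69.9% in Ctrl, 79.7% in dKO).

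The ligand gene Ifng was read mostly in T cell-like cells, which held 171 of the 195 Ifng UMIs of the Ctrl library and 136 of the 144 of the dKO library. Cycling MO/MP-like cells held a further 18 Ctrl UMIs in 2 cells and 0 in dKO. The level in T cell-like cells was 420.7 CPM (360.0 to 489) in 20 positive Ctrl cells and 280.5 CPM (235 to 332) in 18 positive dKO cells. Over all cells it was at 4.78 and 4.74 CPM. The receptor gene Ifngr1 was at 161 and 146 CPM in FAP-like cells (0.906, 0.855 to 0.960), and MO/MP-like cells had 145 and 152 CPM. Ifngr2 was at 52.9 and 47.3 CPM in FAP-like cells (0.894, 0.807 to 0.991) and MO/MP-like cells had 123 and 161 CPM (1.31, 1.21 to 1.41).

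Irf1 was at 177 and 181 CPM in FAP-like cells (1.02, 0.967 to 1.08), whereas in MO/MP-like cells it was at 40.2 and 67.3 CPM (1.67, 1.48 to 1.90). In EC-like cells Irf1 had a ratio of 1.05 (0.896 to 1.23). Socs1, which encodes a feedback inhibitor of the receptor kinases, had a ratio of 1.12 in FAP-like cells and 1.73 (1.26 to 2.36) in MO/MP-like cells. The kinase gene Jak2 was at 1.11 in FAP-like, 1.30 in MO/MP-like and 1.57 (1.33 to 1.86) in EC-like cells.

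Most other genes of the 2 families that reached 100 UMIs were also higher in FAP-like and MO/MP-like cells, but few were measured. In FAP-like cells 2 of 7 GBP and 5 of 13 IRG genes reached that count. In MO/MP-like cells 3 of 7 and 5 of 13 did, and in EC-like cells 3 of 7 and 1 of 13. Of all genes, 2.64%, 4.52% and 4.59% were at least 1.5-fold higher in these 3 classes. The remaining GBP genes with at least 100 UMIs were higher by 1.5-fold or more in 2 of 2 cases in FAP-like cells (Gbp6 2.58, Gbp9 2.48) and in 3 of 3 in MO/MP-like cells (Gbp4 4.35, Gbp6 4.25, Gbp9 1.69). In EC-like cells this held for 1 of 3, Gbp6 at 1.62, with Gbp9 at 0.89 (0.739 to 1.07). Of the remaining IRG genes, 4 of 5 were higher in FAP-like cells (Gm12250 2.95, Gm4951 2.71, Ifi47 2.24, F830016B08Rik 1.88) and 4 of 5 in MO/MP-like cells (Gm4951 3.04, Ifi47 2.43, Gm12250 2.34, Gm5431 2.05). The exception in both classes was Irgq, a divergent family member, at 0.863 and 0.867. In EC-like cells 1 such gene was measured, Ifi47 at 1.83.

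Targets of interferon-gamma outside these families were less uniform, and their counts stand beside shares of all genes of 2.64%, 4.52% and 4.59% in FAP-like, MO/MP-like and EC-like cells. In FAP-like cells 5 of 14 were at least 1.5-fold higher, namely the chemokine gene Cxcl9 (2.39), Cd274 (1.78), the immunoproteasome gene Psmb8 (1.76), B2m (1.66) and the peptide transporter gene Tap1 (1.65). In MO/MP-like cells 5 of 16 were, namely Cxcl9 (5.17 and 55.3 CPM, 10.7, 8.20 to 14.2), Tap1 (2.14), Nlrc5 (2.01), Cd274 (1.67) and Psmb9 (1.59). In EC-like cells 2 of 12 were, Cxcl9 (2.83) and Serping1 (1.57). The list's median log2 ratio was 0.35, 0.44 and 0.16 in these 3 classes, against 1.02, 1.12 and 0.40 for the members.

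The 16 type I interferon targets were all at least 1.5-fold higher in dKO in FAP-like cells (2.64% of all genes), with a median log2 ratio of 1.53, and again all 16 in MO/MP-like cells (4.52% of all genes), with a median of 1.36. Examples are Ifit3 (4.01 in FAP-like, 3.39 in MO/MP-like cells), Irf7 (3.53 and 3.82) and Isg15 (2.88 and 2.52). In EC-like cells, where 4.59% of all genes were at least 1.5-fold higher, 4 of 12 were (Oas2 1.74, Mx2 1.73, Irf7 1.67, Oasl2 1.59) and 1 was as much lower, Cmpk2 at 0.46. Many genes of this list also respond to interferon-gamma, and the 2 inputs cannot be told apart from these levels.

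Of the ATG8 conjugation genes, which act upstream of GTPase loading, 0 of 10 in FAP-like, 0 of 10 in MO/MP-like and 0 of 8 in EC-like cells were 1.5-fold higher or lower, which is near the shares of all genes given above. Of the inflammasome genes, 0 of 5 reached the threshold in FAP-like cells, again near those shares. In MO/MP-like cells 3 of 8 did, namely Casp4, which encodes caspase-11 (2.24, 1.85 to 2.71), Il1b (1.77) and Nlrp3 (1.61), and in EC-like cells the 1 gene measured did, Casp4 (1.53, 1.18 to 1.96), from which no share can be read.

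**Figure D5:**
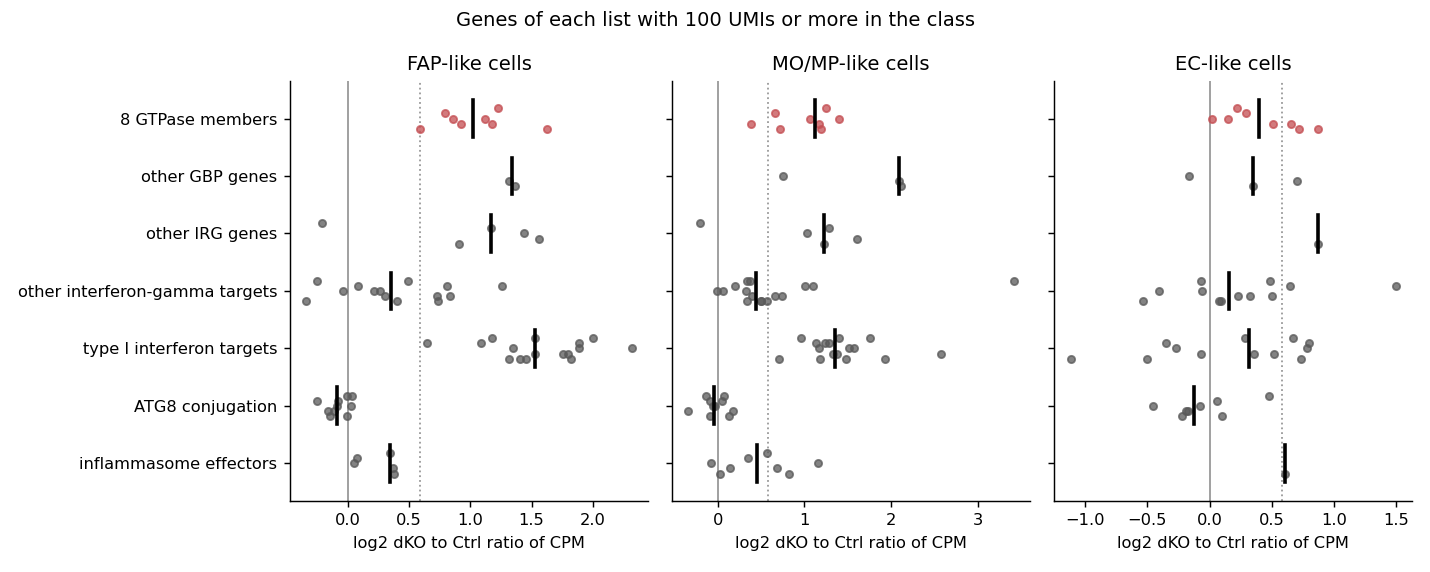
log2 dKO to Ctrl ratio of CPM for each gene with at least 100 UMIs in FAP-like, MO/MP-like and EC-like cells, grouped by 7 of the lists, with the 8 members in red, a bar at each list's median, a solid line at 0 and a dotted line at 1.5-fold. The members' medians are 1.02, 1.12 and 0.40, those of the type I interferon targets 1.53, 1.36 and 0.32, and those of the ATG8 conjugation genes -0.09, -0.05 and -0.13.

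Levels over the 26 points given by 13 classes in 2 libraries, as log2(CPM + 1), were used to find genes with the most similar pattern to the sum, as a description. The points share library and depth. Outside all lists these were Lrch3 (Pearson r 0.79), Elk3 (0.76), Klhl3 (0.76), Aplp2 (0.75) and Itpripl1 (0.75), each higher in EC-like than in FAP-like cells. In EC-like cells of Ctrl and dKO, Elk3 was at 281 and 169 CPM and Aplp2 at 1057 and 1069 CPM. Of the members themselves, Gbp7 (0.87) and Igtp (0.85) were closest to the sum and Irgm1 was the least close (0.54). Each member is part of the sum, so its r cannot be set against those of the genes outside the lists.

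Markers of other classes were counted within FAP-like, MO/MP-like and EC-like cells. All 8 EC markers were read in FAP-like cells, at a summed 16.7 CPM in Ctrl and 7.45 CPM in dKO, against 7523 and 6853 CPM in EC-like cells. The 12 MO/MP markers were at 81.6 and 66.4 CPM, and the 7 T cell markers at 1.96 and 1.37 CPM, with Cd3e at 0 in dKO, and the part of these in the FAP-like values was not tested. In MO/MP-like cells the 10 FAP markers were at 501 and 663 CPM, the 7 T cell markers at 18.9 and 25.5 CPM and the 8 EC markers at 30.3 and 25.4 CPM, and their part in the MO/MP-like values was not tested. In EC-like cells the 10 FAP markers were at 1601 and 2119 CPM, of which 1 marker gave 1380.2 and 1891 CPM, and Pdgfra was at 0 in dKO. There the 12 MO/MP markers were at 126.7 and 101.0 CPM, and the part of these in the EC-like values was not tested.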

How the data were processed

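The authors deposited raw UMI counts per gene and cell for each library. The submitters' processing notes name Cell Ranger 7.0.0, Seurat 4.3.0 and the mm10 build, while the matrix headers carry software version 3.0.2. The 8 members and all gene lists were chosen with earlier results of these data known. From the deposited counts, cells with at least 500 genes were kept, and the 7.5% of cells per library with the highest Scrublet scores (scanpy 1.11.5, Python 3.11.15) were removed as likely doublets, 325 in Ctrl and 250 in dKO, since Scrublet's own threshold called 4 and 14. Libraries were integrated with Seurat 5.3.0 (R 4.3.3) on 2000 variable genes without the 88 listed genes, and clustered with 40 dimensions at resolution 0.8. Of 24 clusters, 23 were named from fixed markers.

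UMIs were summed per class and library and divided by the class total. Ratios carry exact conditional binomial intervals (scipy 1.17.1). These were run on simulated Poisson counts without cells or mice. That run checks the calculation only, since it shares the assumption of the intervals, and not their coverage in these data. Genes of a list were named if 1.5-fold higher or lower with at least 100 UMIs in the class, besides the ligand, receptors and Irf1, which were named in any case, and the 5 genes most correlated with the sum. Irgq, Gbp9 in EC-like cells and the examples of type I targets were chosen after their values were seen, as were the ratios of Socs1 and Jak2 below the threshold. An item of the interferon-gamma pathway list is not reported here, and the counts of that list are left out. With 1 library per genotype, no test was made. The alternatives were no doublet removal, a minimum of 200 genes, all variable genes, no integration, resolutions of 0.4 and 1.2, the mean of single-cell CPM, centring on the median gene, thinning and a minimum of 20 UMIs. Leaving out the top cell of each single gene, per class and per cluster, and adding the Fcna-led cluster to MO/MP-like cells were chosen after seeing the data.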

Additional observations from a re-analysis of the deposited data

Results flagged for a closer look

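In 3 single members and 2 sums, the counting interval of the dKO to Ctrl ratio lay below 1 in a small class and above 1 in FAP-like cells. The difference between the classes was not tested over samples, since each genotype has 1 library. Irgm2 in T cell-like cells had 14 UMIs in Ctrl and 6 in dKO, a ratio of 0.359 (0.113 to 0.995), against 1.81 in FAP-like cells. Without its top cells the Irgm2 ratio was 0.349 (0.0963 to 1.06), so that the interval included 1. Gbp2 in dendritic cell-like cells had a ratio of 0.579, which was 0.63 (0.347 to 1.11) without the cell with most Gbp2 UMIs in each library. Iigp1 in dendritic cell-like cells had a ratio of 0.258, with 24 of the 28 Ctrl UMIs in 1 cell, and 1.18 (0.220 to 6.35) without the top cells. The 8 genes summed had a ratio of 0.537 in lymphatic EC-like cells, with 63 of 89 Ctrl UMIs in 1 cell, and 1.56 (0.849 to 2.84) without the top cells. Iigp1 in dendritic cell-like cells and the lymphatic EC-like sum thus changed direction when 1 cell per library was left out. In the unnamed cluster the sum rested on 71 Ctrl and 27 dKO UMIs, with a ratio of 0.579 (0.357 to 0.913), or 0.508 (0.279 to 0.888) without the top cells.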

How the results depend on the processing

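No paired analysis was possible because each genotype has 1 library. Over the alternatives, 447 log2 ratios of single members were computed for 40 gene and class pairs (the 8 members in FAP-like, MO/MP-like, EC-like and T cell-like cells and in all cells), of which 422 stayed within the counting interval of the reported value, 25 moved outside it and 0 reversed a called direction. The smaller classes were recomputed without top cells only, and there Iigp1 in dendritic cell-like cells changed direction, as did several members whose interval included 1. In EC-like cells the log2 ratio of the sum was 0.57 as reported, 0.44 with no doublets removed, 0.44 as the mean of each cell's own CPM and 0.48 with cells thinned to 2000 UMIs, and the members at 1.5-fold or more were 0 in place of 3 with no doublets removed. Over all cells it was 0.71 as reported, and 0.66, 0.46 and 0.47 under the same 3 alternatives, and 0.77 with the median gene set to 0. With a minimum of 20 UMIs in place of 100, the genes at 1.5-fold or more higher numbered 562 in place of 271 in FAP-like, 723 in place of 384 in MO/MP-like and 711 in place of 218 in EC-like cells, since more genes of low count were tested. The cause of the other shifts was not tested. Intervals do not cover the spread between cells or between mice, and classes with under 100 summed UMIs in a library give wide intervals.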
